A study of Mus musculus with 12 samples.

Results

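Lysosome and cathepsin genes were followed across 3 murine acute myeloid leukaemia lines measured on oligonucleotide arrays. The list held 39 genes chosen by function. They were 9 cathepsins and related proteases, 8 membrane proteins, 8 glycosidases and sulfatases, and 5 lipid hydrolases and peptidases. The others were 3 cofactors and carriers, 3 subunits of the proton pump and 3 Mitf/Tfe transcription factors, Tfeb, Tfe3 and Mitf. Each gene was represented by its brightest probe set among those annotated to a single gene, and 38 of the 39 had one. Neu1 was not analysed here. Ctsh and Lgmn, which encode a cathepsin aminopeptidase and the protease legumain, lay below the array median on all 12 arrays and were not tested, with means of 11.2 to 16.3 intensity units in the 3 lines. The other 36 were tested among 11223 genes.

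The line called Trib1 expressed Trib1, a pseudokinase known to drive degradation of C/EBPalpha, without introduced Bcl11a. By their labels, TB13 and TB14 expressed Trib1 and also Bcl11a, which encodes a zinc finger repressor of transcription, so Trib1 was common to all 3. All were leukaemia cells kept untreated in IMDM that held 5 ng/ml interleukin-3 and 10% serum, and each line gave 4 arrays from 100 ng of total RNA. The series asks whether Bcl11a acts against the myeloid factor PU.1, the product of Spi1. The labels do not say that the 4 arrays of a line came from separate cultures, or how TB13 and TB14 were derived, so the only error behind a p-value is array-to-array variation, possibly of technical origin. With a single Trib1 line, the spread between lines was not measured.

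Lysosomes are acidic compartments in which cathepsins and other hydrolases break down proteins, glycans and lipids. The vacuolar ATPase pumps in the protons, and heavily glycosylated membrane proteins such as Lamp1 and Lamp2 line the limiting membrane. Macrophages and other phagocytes are rich in lysosomes. Tfeb, Tfe3 and Mitf are related factors that bind E-box sequences in the promoters of many lysosomal genes, and PU.1 binds purine-rich ETS sites in myeloid genes, Ctss among those known for it.

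Promoter windows of 300 bases around annotated transcription starts were given by RefSeq (build GRCm38.p6) for 33 of the 39 genes. Ctsb, Asah1, Atp6v1h, Ctsh, Npc1 and Laptm4b had no entry. The E-box core CACGTG stood in the windows of 10 of the 33 genes (30.3%), against 8.09% of all 27025 genes with a window. These were Arsa, Atp6v0d1, Atp6v1a, Ctsa, Ctsd, Ctsl, Gaa, Glb1, Lamp1 and Lgmn. Its extended form TCACGTGA, which contains CACGTG, stood in 4 (12.1%, against 1.12% of all genes): Atp6v0d1, Atp6v1a, Ctsa and Ctsd. The ETS-type sequence GAGGAAGT, searched on both strands like the others, stood in Ctsc, Ctss and Gusb (9.09%, against 3.69% of all genes). The 3 sequences were picked after the expression values were known, and a match is a description of the letters and no evidence of binding.

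The following stretches are shown because they hold these matches, in capitals, in genes described below. Each reads 5′ to 3′ along the gene's strand. In Ctss and Ctsc, both on the plus strand, the ETS-type match lies on the minus strand and reads ACTTCCTC here. They come from chr3:95526706-95526793 for Ctss and chr7:88277915-88277994 for Ctsc.
Ctss: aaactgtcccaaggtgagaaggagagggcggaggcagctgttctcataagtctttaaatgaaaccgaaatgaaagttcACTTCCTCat
Ctsc: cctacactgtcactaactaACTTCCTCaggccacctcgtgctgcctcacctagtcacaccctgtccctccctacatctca

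Lamp1 held 4 E-box cores within 80 bases, at chr8:13159081-13159160 on the plus strand. Ctsd (chr7:142387886-142387945, minus strand), Atp6v0d1 (chr8:105566059-105566124, minus strand), Atp6v1a (chr16:44139350-44139409, minus strand) and Ctsa (chr2:164833713-164833784, plus strand) held the extended form. Capitals mark CACGTG.
Lamp1: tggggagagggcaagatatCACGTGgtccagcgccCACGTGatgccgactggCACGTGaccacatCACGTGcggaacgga
Ctsd: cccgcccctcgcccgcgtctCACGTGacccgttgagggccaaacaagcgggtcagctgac
Atp6v0d1: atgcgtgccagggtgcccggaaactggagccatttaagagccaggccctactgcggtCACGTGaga
Atp6v1a: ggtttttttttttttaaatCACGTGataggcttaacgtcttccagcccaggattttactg
Ctsa: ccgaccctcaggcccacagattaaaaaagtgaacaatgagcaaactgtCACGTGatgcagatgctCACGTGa

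Hexa and Atp13a2, which moved far in opposite directions, held none of the 3 sequences in their windows. The 80 bases before their starts are shown for comparison, from chr9:59539460-59539539 and chr4:140986841-140986920, both on the plus strand.
Hexa: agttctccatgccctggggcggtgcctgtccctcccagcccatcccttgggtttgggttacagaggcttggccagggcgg
Atp13a2: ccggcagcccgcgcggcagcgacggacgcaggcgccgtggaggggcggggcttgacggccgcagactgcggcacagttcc

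Values are linear intensities as deposited, and changes are differences of log2(intensity + 12.7), the added 12.7 being the 25th percentile of the deposited values. A gene was called at an adjusted p under 0.05 in limma. The TB13 arrays stood apart in scale. Their upper quartiles were 71.8 to 72.5, against 102.2 to 108.9 on the other 8 arrays, and the 18 hybridization controls had a median 0.93 lower (log2) than on the Trib1 arrays. Over all genes tested, the median TB13 change against Trib1 was -0.39 as deposited and 0.03 after quantile scaling, and it ran from -0.63 with median scaling to 0.51 with calibration on the hybridization controls. Both the deposited and the quantile-scaled change are given for TB13, and members whose direction depended on the scaling are named. The TB14 arrays matched the Trib1 arrays in scale, with a median change of -0.0024 over all genes.

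The 8 myeloid markers were above the array median on all 12 arrays, as the labelled cell type implies, but moved both ways. Their summed intensity was 6307 to 6422 on the Trib1 arrays, 4519 to 4749 on TB13 and 7436 to 7489 on TB14. In TB14, 5 of the 8 were lower, among them Spi1 (-0.37), and Mpo, Lyz2 and Csf3r were higher (log2 changes 3.28, 1.43 and 0.65). Of 10 macrophage and monocyte markers, 6 were tested, and Mertk, Mrc1, C1qa and C1qb lay below the median everywhere. Adgre1, Cd68, Csf1r and Ccr2 fell in TB14, while Cd14 and Fcgr1 were not called there (0.14 and -0.11), and Fcgr1 was higher in TB13 under all 5 scalings. The summed intensity of the 10 was 3054 to 3246 on the Trib1 arrays, 1300 to 1505 on TB13 and 1508 to 1526 on TB14. Some markers of other lineages moved as well. The erythroid sum was 937 to 986 in Trib1 and 1550 to 1582 in TB14. Of the erythroid genes tested, Hba-a1 rose in TB14, while Alas2 and Epor were not called as deposited. Among mast cell and basophil markers, Kit rose by 1.04 in TB14. Over the 5 scalings, Gata2 changed there by 0.28 to 0.38, Cpa3 by 0.04 to 0.06 and Fcer1a by -1.70 to -1.59. The lymphocyte marker Cd3g fell by 1.62 in TB14, while Cd3e, Cd79a, Ms4a1 and Cd8a were not called as deposited. The part of these markers in the lysosomal results was not tested. In bulk RNA, fewer cells of a type and less RNA per cell cannot be told apart.

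In TB14, more of the lysosomal genes fell than rose, most of them modestly. Of the 36 tested, 19 were called lower, where 21.5% of all genes were, and 8 higher, where 27.0% were. Their median change was -0.12, against -0.0024 for all genes. At 2-fold or more, 1 member was lower (Ctss, background 1.79%) and 1 higher (Atp13a2, background 1.02%). Ctsc, Ctsd, Ctsl, Ctss, Lamp1, Lamp2, Laptm4a, Laptm5, Scarb2, Hexa, Gusb, Man2b1, Asah1, Tpp1, Grn, Npc2 and Atp6v0d1 were called lower under all 5 scalings tried. Ctsz, Laptm4b, Npc1, Atp13a2, Psap, Atp6v1h and Tfeb were called higher under all 5. After quantile scaling the counts were 20 lower (background 20.9%) and 8 higher (background 22.9%).

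**Figure D1:**
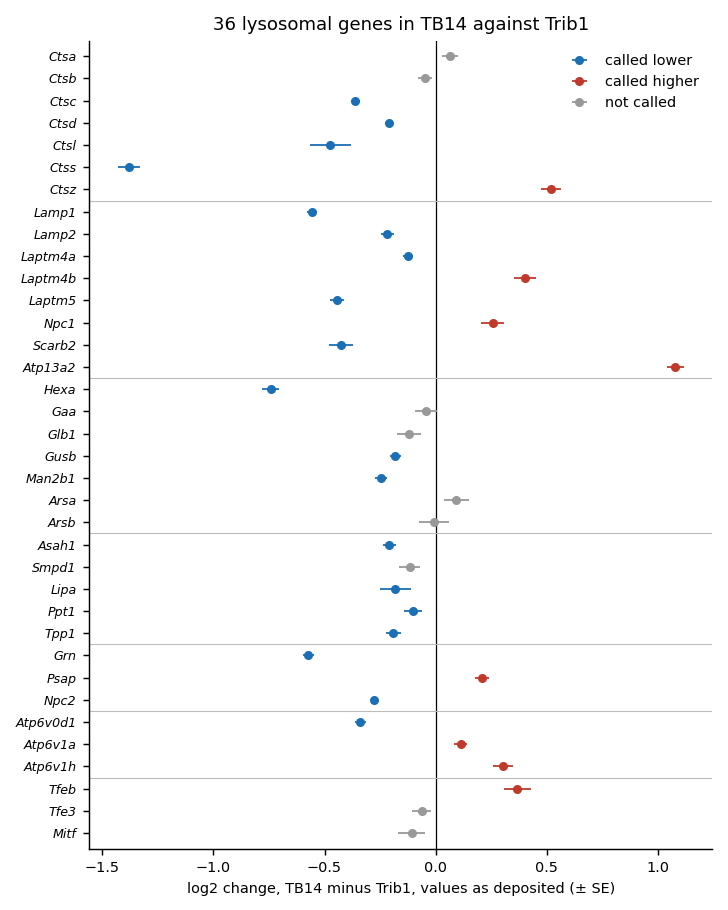
Log2 change of intensity + 12.7 in TB14 against Trib1 for the 36 lysosomal genes tested, grouped by role, with the standard error from limma as bars and the colour giving the call. Ctss at -1.38 and Atp13a2 at 1.08 stand farthest from 0, and most other genes lie between -0.6 and 0.6.

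In TB13, 31 members were called lower as deposited, where 63.6% of all genes were, and 4 higher, where 29.0% were, with a median of -0.62 against -0.39 for all genes. After quantile scaling, 22 were lower (background 38.4%) and 8 higher (background 41.9%), with a median of -0.22 against 0.03. At 2-fold or more, 10 were lower (background 14.8%) and 2 higher (background 1.01%) as deposited, and 2 lower (background 4.03%) and 2 higher (background 5.25%) after quantile scaling. The 2 lower genes after quantile scaling were Ctss and Hexa, and the 2 higher genes under either scaling were Laptm4b and Atp13a2. Under all 5 scalings, Ctsa, Ctsb, Ctsc, Ctsd, Ctsl, Ctss, Lamp1, Lamp2, Hexa, Gusb, Man2b1, Ppt1, Tpp1, Grn, Npc2, Atp6v0d1, Atp6v1a and Atp6v1h were called lower, and Laptm4b, Atp13a2 and Tfeb higher. The direction depended on the scaling for Ctsz, Laptm4a, Npc1, Scarb2, Gaa, Glb1, Arsa, Arsb, Smpd1, Lipa, Psap, Tfe3 and Mitf. Both lines were compared with the same 4 Trib1 arrays, so their results are set side by side for each gene and not combined into a count of shared changes.

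**Figure D2:**
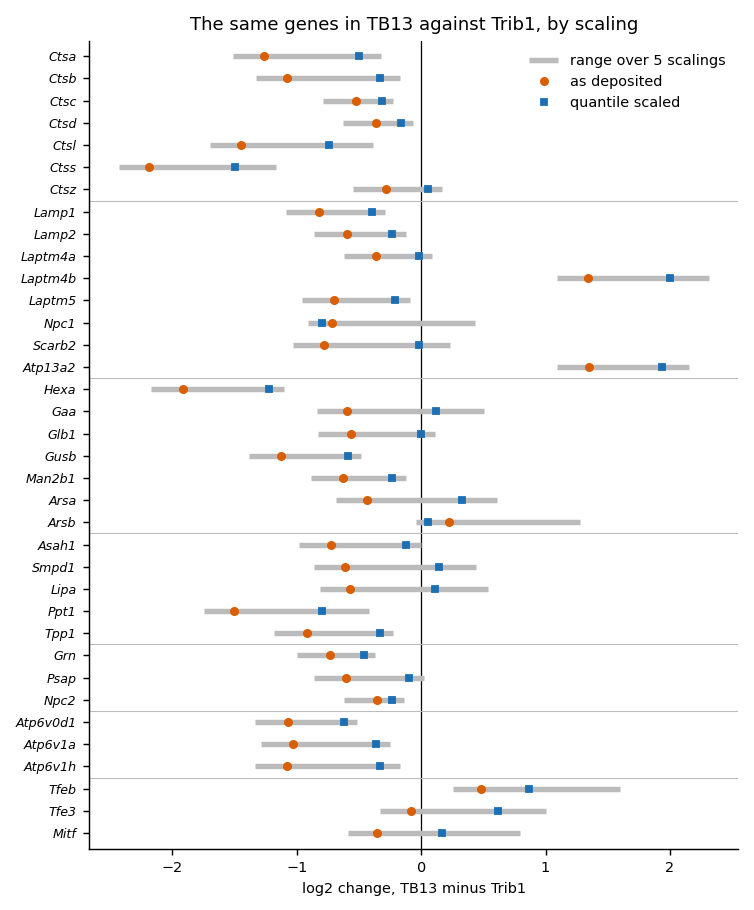
Log2 change in TB13 against Trib1 for the same 36 genes, with circles for values as deposited, squares for values after quantile scaling and grey bars spanning the 5 scalings. The bars of Ctss, Hexa, Laptm4b and Atp13a2 stay more than 1 log2 unit from 0, whereas those of 13 genes cross it.

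Among the cathepsins, Ctss showed the largest fall. Ctss encodes cathepsin S, a cysteine protease of antigen-presenting cells that trims the MHC class II invariant chain. Its 12 intensities were 549.5, 531.9, 522.1 and 529.8 in Trib1, 108.4, 111.4, 117.5 and 92.7 in TB13, and 197.6, 194.2, 199.3 and 197.2 in TB14. The 3 lines did not overlap, with Trib1 highest and TB13 lowest. Ctss was 2.60-fold lower in TB14 on the log2(intensity + 12.7) scale (log2 change -1.38, SE 0.052, limma adjusted p = 2.37e-14). In TB13 its log2 change was -2.19 as deposited and -1.50 after quantile scaling. The gap between TB14 and TB13 depended on the scaling.

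Ctsl, which encodes cathepsin L, a cysteine endopeptidase of broad specificity, measured 327 ± 7.51 in Trib1 cells (SD, n = 4), against 114 ± 28.2 in TB13 and 232 ± 4.09 in TB14. It fell by 0.47 in TB14 (log2, limma adjusted p = 2.65e-04), and its TB13 change was -1.45 as deposited and -0.74 after quantile scaling. Its 4 TB13 arrays were uneven, with replicate 2 at 155 and the others between 95.6 and 107.7, all still below Trib1. Ctsc, the dipeptidyl peptidase that activates serine proteases of myeloid granules, fell by 0.36 in TB14 (2242 ± 27.2 to 1742 ± 11.8) and by 0.52 in TB13 as deposited (0.32 after quantile scaling). Ctsd, the main aspartic protease of lysosomes, fell by 0.21 in TB14 and by 0.37 in TB13 (0.16 after quantile scaling).

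Ctsz, a carboxypeptidase of the same family, went the other way in TB14, where it rose 1.43-fold from 1331 ± 23.1 to 1913 ± 27.8 (SD, n = 4, log2 change 0.52, limma adjusted p = 5.85e-09). All 4 TB14 arrays lay above all 4 Trib1 arrays. In TB13 its change was -0.28 as deposited and 0.06 after quantile scaling, so no direction could be given there. Ctsa, the protective carboxypeptidase that stabilises beta-galactosidase and neuraminidase, and Ctsb, an abundant cysteine protease, were not called in TB14 (log2 changes 0.07 and -0.05). In TB13 they fell by 1.26 and 1.08 as deposited, and by 0.50 and 0.33 after quantile scaling.

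The membrane proteins split. Lamp1, the most abundant glycoprotein of the lysosomal membrane, had means of 1338 ± 26.9 in Trib1 cells (SD, n = 4), against 750 ± 6.85 in TB13 and 905 ± 7.39 in TB14. The 3 lines did not overlap as deposited, but the order of TB13 and TB14 depended on the scaling. The log2 difference of TB14 from TB13 was 0.27 as deposited and -0.21 after quantile scaling. Against Trib1, Lamp1 fell by 0.56 in TB14 (limma adjusted p = 4.01e-14) and in TB13 by 0.82 as deposited and 0.40 after quantile scaling. Lamp2, needed for chaperone-mediated autophagy, fell by 0.22 in TB14, and by 0.60 in TB13 as deposited (0.23 after quantile scaling). One further Lamp2 probe set fell by 0.17 in TB14, and another was not called there (log2 change -0.06, limma adjusted p = 0.369). In TB13 these fell by 1.32 and 1.71 as deposited, and by 0.59 and 0.95 after quantile scaling. Laptm5, a haematopoietic lysosomal protein, fell by 0.44 in TB14, and Scarb2, the receptor that carries glucocerebrosidase to lysosomes, by 0.42. Laptm4a fell by 0.12.

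Atp13a2 and Laptm4b rose. Atp13a2 encodes a lysosomal polyamine exporter of the P5 ATPase family. Its intensities were 220.4, 211.8, 212.8 and 202.2 in Trib1, 582.7, 556, 538.5 and 557.4 in TB13, and 477.9, 477.9, 434.4 and 456.9 in TB14. Every array of TB13 and TB14 was above every Trib1 array. The rise was 2.11-fold in TB14 (log2 change 1.08, SE 0.039, limma adjusted p = 1.27e-14), and in TB13 the log2 change was 1.35 as deposited and 1.94 after quantile scaling.

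Laptm4b encodes a tetraspanning protein of late endosomes and lysosomes. It gave 108.9, 96.0, 92.8 and 92.2 in Trib1, 269.8, 263, 261.3 and 271.4 in TB13, and 132.7, 127.1, 137.6 and 133.5 in TB14. The 3 lines did not overlap, and TB13 was highest. The log2 change was 0.40 in TB14 (SE 0.050, limma adjusted p = 1.42e-06) and 1.34 in TB13 as deposited, or 2.00 after quantile scaling. Laptm4b was the only one of the 36 genes lower in TB14 than in TB13 under all 5 scalings (log2 difference -0.94 as deposited and -1.68 after quantile scaling).

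Npc1, the membrane protein that moves cholesterol out of lysosomes, rose by 0.26 in TB14, from 56.7 ± 2.39 to 70.2 ± 3.53 (SD, n = 4, limma adjusted p = 3.37e-04). In TB13 it was at 29.5 ± 1.69, with log2 changes of -0.72 as deposited and -0.80 after quantile scaling but 0.44 with calibration on the hybridization controls. Npc2, its soluble partner, fell in TB14 by 0.28 and in TB13 by 0.36 (0.23 after quantile scaling).

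**Figure D3:**
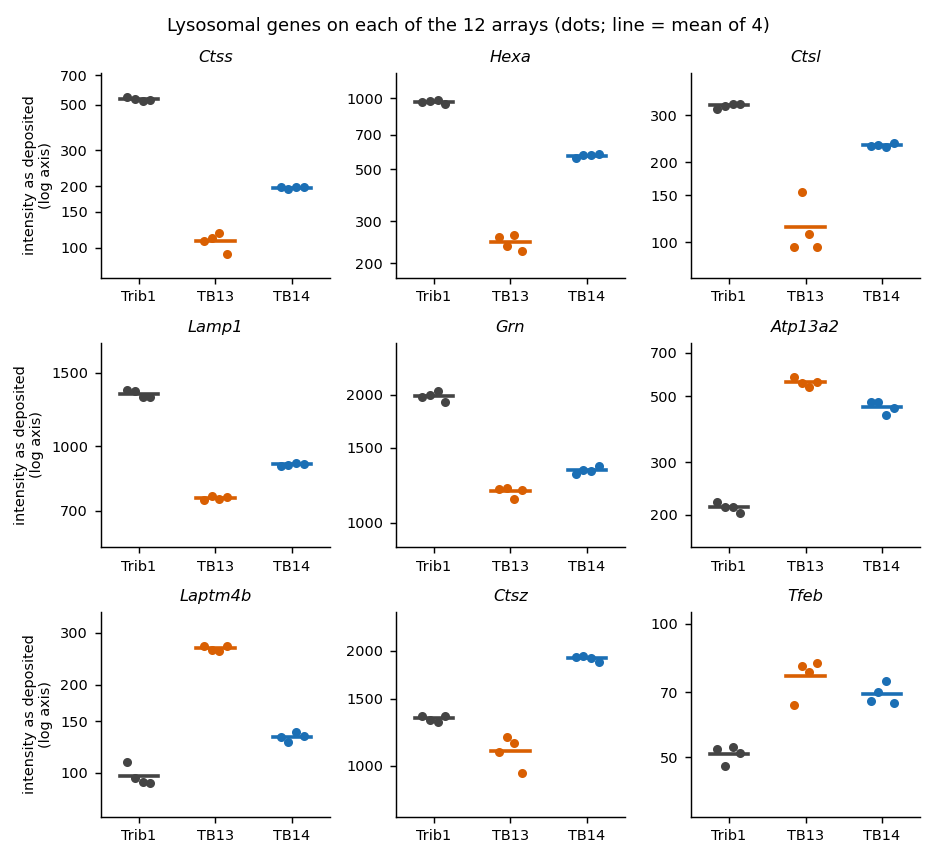
Intensity as deposited on each of the 12 arrays for 9 lysosomal genes, on log axes that differ between panels, with a line at the mean of the 4 arrays. Ctss, Hexa, Ctsl, Lamp1 and Grn are lower in TB13 and TB14 than in Trib1, Atp13a2, Laptm4b and Tfeb are higher, and Ctsz is higher in TB14; the TB13 values carry that line's different scale.

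Among glycosidases and sulfatases, Hexa changed most. Hexa encodes the alpha subunit of beta-hexosaminidase, which removes sugars from the ganglioside GM2. Its intensities were 958.9, 972, 981 and 944.9 in Trib1, 258.6, 236.8, 264.2 and 225.3 in TB13, and 558.1, 574.5, 574.2 and 577.9 in TB14. The 3 lines were separate, TB13 lowest. Hexa was 1.67-fold lower in TB14 (log2 change -0.74, SE 0.040, limma adjusted p = 6.27e-12), and its TB13 change was -1.92 as deposited and -1.23 after quantile scaling. The TB14 level exceeded the TB13 level under all 5 scalings (log2 difference 1.18 as deposited, 0.42 after quantile scaling).

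Gusb, beta-glucuronidase, and Man2b1, the lysosomal alpha-mannosidase, fell by 0.18 and 0.25 in TB14. A further Gusb probe set was not called there (log2 change 0.02, limma adjusted p = 0.753). In TB13 Gusb fell by 1.13 as deposited and 0.59 after quantile scaling, and Man2b1 by 0.63 and 0.24. Gaa, Glb1, Arsa and Arsb, which degrade glycogen, galactosides and sulfated lipids or glycans, were not called in TB14, with log2 changes of -0.04, -0.12, 0.09 and -0.0077. Their TB13 direction depended on the scaling. Arsb was dim, with means of 22.1 to 28.3, and exceeded the array median on only 8 arrays.

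Of the lipid hydrolases and peptidases, Asah1 (acid ceramidase) fell by 0.21 and Tpp1 (tripeptidyl peptidase 1) by 0.19 in TB14. A further Tpp1 probe set was not called there (log2 change -0.14, limma adjusted p = 0.112). Lipa (lysosomal acid lipase) and Ppt1 (palmitoyl-protein thioesterase 1) were called lower by 0.18 and 0.10, but both calls depended on which arrays entered the fit. Leaving out any of Trib1 replicates 1, 3 or 4 or TB14 replicates 1 or 2 ended the Lipa call (adjusted p 0.058 to 0.14), and leaving out any of Trib1 replicates 2, 3 or 4 or TB14 replicates 1, 3 or 4 ended the Ppt1 call (0.063 to 0.16). Smpd1 (acid sphingomyelinase) was not called, at -0.12. In TB13, Ppt1 fell by 1.50 as deposited and 0.80 after quantile scaling (316 ± 8.89 in Trib1, 103 ± 2.99 in TB13, SD, n = 4), and Tpp1 by 0.92 and 0.33.

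Among cofactors and carriers, Grn and Psap differed in TB14. Grn encodes progranulin, a secreted and lysosomal glycoprotein abundant in myeloid cells, and fell 1.49-fold in TB14 from 1985 ± 45.6 to 1331 ± 24.0 (SD, n = 4, log2 change -0.57, limma adjusted p = 6.73e-14). Psap, the precursor of the saposins that present lipids to hydrolases, rose by 0.21 from 967 ± 28.6 to 1119 ± 22.6 (limma adjusted p = 1.27e-05). In TB13 Grn fell by 0.74 as deposited and 0.46 after quantile scaling, while Psap changed direction with the scaling. The TB14 level of Psap exceeded the TB13 level under all 5 scalings.

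The 3 proton pump subunits did not move as a unit in TB14. Atp6v0d1, of the membrane sector, fell by 0.34 (1410 ± 16.4 to 1112 ± 12.8, SD, n = 4). Atp6v1h, the regulatory subunit of the cytosolic sector, rose by 0.30 (497 ± 11.7 to 616 ± 4.92), and Atp6v1a, its catalytic subunit, by 0.11. The Atp6v1a rise was not called with loess scaling (0.061, limma adjusted p = 0.083), and the mean of its probe sets gave -0.062, since a further probe set fell. In TB13 all 3 fell: Atp6v0d1 by 1.07 as deposited and 0.62 after quantile scaling, Atp6v1a by 1.03 and 0.36, and Atp6v1h by 1.08 and 0.33. TB14 was above TB13 for all 3 under all 5 scalings.

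Of the Mitf/Tfe factors, Tfeb rose in TB14 by 0.37, from 50.9 ± 2.24 to 69.4 ± 3.72 (SD, n = 4, limma adjusted p = 4.71e-05). In TB13 it was at 76.4 ± 7.29, and its change was 0.48 as deposited and 0.87 after quantile scaling. Tfe3 and Mitf were not called in TB14 (-0.06 and -0.11), and their TB13 direction depended on the scaling. Tfec, of the same family, was counted in the nutrient sensing list below and is named after its values were seen. It was called higher in TB14 under all 5 scalings (0.32 to 0.44), and its TB13 direction depended on the scaling (-0.16 to 1.06). The 9 tested genes with CACGTG in their windows gave 4 lower, 1 higher and 4 not called in TB14, with a median of -0.12. Over all genes, 23.4% of the 1039 tested with this sequence were lower in TB14 and 21.0% of the 8061 without it, and 28.7% and 27.6% were higher. For the extended form, 21.7% of 198 genes with it and 21.3% of 8902 without it were lower in TB14, and 52.5% and 38.9% in TB13 after quantile scaling. The same TB13 shares were 42.7% and 38.7% for CACGTG, and 48.6% and 38.8% for GAGGAAGT. Ctsc, Ctss and Gusb, the genes with GAGGAAGT, were all lower in TB14 on their brightest probe sets, but a further Gusb probe set was not called. Over all genes, 27.3% of 352 genes with the sequence and 21.1% of 8748 without it were lower in TB14 (26.7% and 27.7% higher).

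For both Bcl11a lines together against Trib1, the contrast named in the study's design, 30 members were called lower (background 55.9%) and 4 higher (background 28.4%) as deposited, and 22 lower (background 31.6%) and 7 higher (background 38.6%) after quantile scaling. The mean log2 change over both lines was -1.78 for Ctss, -1.33 for Hexa, -0.96 for Ctsl, -0.69 for Lamp1 and -0.65 for Grn as deposited, and -1.45, -1.02, -0.61, -0.50 and -0.54 after quantile scaling. It was 1.21 for Atp13a2, 0.87 for Laptm4b and 0.43 for Tfeb as deposited, and 1.50, 1.16 and 0.58 after quantile scaling. With each line's mean taken as 1 sample, the changes as deposited stayed the same, but Trib1 had a single value. That fit had little power to call any gene. It cannot decide whether the changes exceed the spread between lines.

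The test of TB14 against TB13 gave 31 members higher (background 63.4%) and 3 lower (background 29.4%) as deposited, and 13 higher (background 38.9%) and 19 lower (background 41.1%) after quantile scaling. The genes called higher in TB14 under all 5 scalings were Ctsa, Ctsb, Ctsz, Hexa, Gusb, Ppt1, Psap, Atp6v0d1, Atp6v1a and Atp6v1h. Their log2 differences included 1.33 for Ctsa, 1.40 for Ppt1 and 1.39 for Atp6v1h as deposited, and 0.55, 0.68 and 0.63 after quantile scaling.

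Further probe sets were available for 18 of the genes, 24 in all. In TB14, 19 of the 24 had the sign of the brightest probe set, and 2 were called in the opposite direction: one of Lipa rose from 77.2 to 99.2 (log2 change 0.32), and one of Atp6v1a fell from 550 to 465 (-0.24). The 2 further probe sets of Atp13a2 rose by 1.92 and 0.78, those of Laptm4b by 0.93 and 0.26, and those of Ctsz by 0.62 and 0.54. The Laptm4b probe set with 0.93 had a mean of 18.0 in Trib1, below the array medians there (21.1 to 21.4). Its means were 66.7 in TB13 and 45.8 in TB14. It may have passed the filter only through those lines, so its rise is not counted as agreement. In TB13, 22 of the 24 shared the sign as deposited, and a dim probe set of Ctsa was called the opposite way, from 21.4 to 37.1. A second probe set of Scarb2 fell in TB13 under either scaling (-1.56 and -1.16), where the brighter one gave -0.78 and -0.02.

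**Figure D4:**
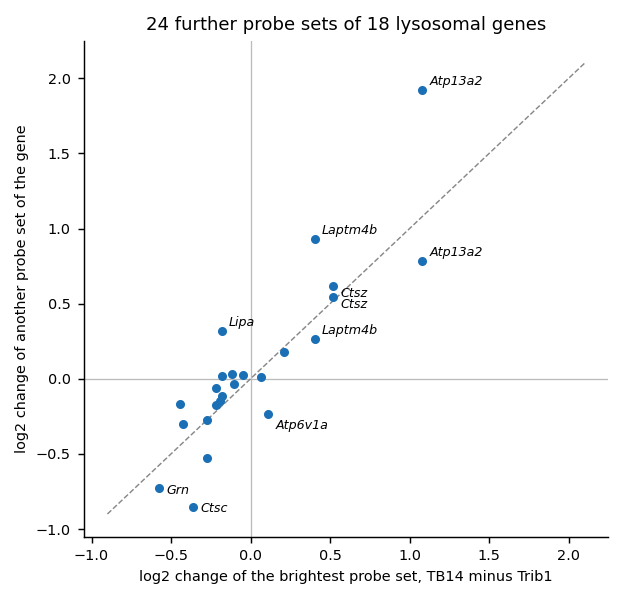
Log2 change in TB14 against Trib1 for the brightest probe set of a gene (horizontal axis) and for each of its further probe sets (vertical axis), 24 points from 18 genes, with a dashed line of equality. Lipa and Atp6v1a each have a point on the opposite side of 0, and all points of Atp13a2, Laptm4b and Ctsz lie above 0. The higher Laptm4b point is of a probe set with a Trib1 mean below the array median.

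Related lysosomal pathways were described through 7 further lists, and the counts are set against 21.5% lower and 27.0% higher over all genes in TB14. For both lines together, as deposited, 55.9% of all genes were lower and 28.4% higher, and after quantile scaling 31.6% and 38.6%. Of 18 other hydrolases tested, 9 were lower and 3 higher in TB14, and 11 lower and 4 higher in both lines together (10 and 5 after quantile scaling), near the share over all genes as deposited. Scpep1, a serine carboxypeptidase, fell by 0.92 in TB14 and by 1.57 in TB13 as deposited (0.98 after quantile scaling). Ids, which degrades heparan and dermatan sulfate, fell by 0.68 in TB14. Gla, alpha-galactosidase A, fell by 0.18 in TB14 and by 1.79 in TB13 as deposited (1.04 after quantile scaling). Ctsw, a cathepsin of cytotoxic lymphocytes, fell by 1.26 in TB14 (209 ± 14.0 to 79.5 ± 3.27, SD, n = 4) and by 1.12 in TB13 as deposited, where its value over the 5 scalings reached 0.0065 at the highest. Galns, which removes sulfate from keratan and chondroitin sulfate and is named after its values were seen, rose by 1.26 in TB14.

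Of 19 other membrane and transport proteins tested, 9 were lower and 0 higher in TB14 by limma (0 higher also at an unadjusted p under 0.05), and 15 lower and 1 higher in both lines (13 and 1 after quantile scaling). Cd68, a lysosomal glycoprotein of macrophages and also one of the macrophage markers above, fell by 1.46 in TB14 (731 ± 30.0 to 258 ± 4.27, SD, n = 4) and by 2.35 in TB13 as deposited (1.63 after quantile scaling). Litaf, a late endosomal protein, fell by 0.81 in TB14, and Tpcn1, an endolysosomal cation channel, by 0.76. Ostm1, the partner of the chloride transporter Clcn7, was not called in TB14 (-0.11) and fell by 1.27 in TB13 as deposited (0.51 after quantile scaling). Of 11 other subunits of the vacuolar ATPase, 6 were lower and 2 higher in TB14, and 9 lower and 2 higher in both lines (8 and 1 after quantile scaling). Tcirg1, the a3 subunit, fell by 0.34 in TB14, Atp6v1f by 0.28 and Atp6v1b2 by 0.17, while Atp6v0b was not called (0.02). Atp6v0a1 and Atp6v0a2, subunits named after their values were seen, rose in TB14 by 0.88 and 0.60, more than any of these fell.

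The sorting machinery gave 3 lower and 4 higher of 18 in TB14, and 13 lower and 1 higher in both lines (8 and 5 after quantile scaling). Sort1, which encodes the sorting receptor sortilin, rose by 0.60 in TB14 and by 1.14 in TB13 as deposited (1.71 after quantile scaling). Gnptab, needed for the mannose 6-phosphate tag on lysosomal enzymes, was called in opposite directions: it rose by 0.35 in TB14, to 242 ± 7.17 from 187 ± 8.79, and fell by 1.66 in TB13, to 50.9 ± 8.97 (SD, n = 4, log2 change -1.37 after quantile scaling). These directions held under all 5 scalings. Ap3d1 and Vps41, of the AP-3 and HOPS complexes, fell by 0.17 and 0.18 in TB14.

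Of 7 cathepsin inhibitors, 4 were lower and 3 higher in TB14, and 4 lower and 2 higher in both lines (4 and 3 after quantile scaling). One of the 3 higher was Stfa3, a stefin, at 80.3 ± 3.70 in TB14 and 12.5 ± 0.752 in Trib1 (SD, n = 4). It passed the filter on low values only through the 4 TB14 arrays and so had to differ, and no fold is given because the Trib1 level lay below the array median. Cst3, cystatin C, fell by 0.70, Serpinb6b by 0.75 and Cstb, stefin B, by 0.43 in TB14. Of 16 genes of nutrient sensing and Tfeb control, 6 were lower and 5 higher in TB14, and 14 lower and 2 higher in both lines (8 and 5 after quantile scaling). Fnip2, Fnip1 and Flcn, whose proteins form the folliculin complex that controls Tfeb on lysosomes, fell by 0.70, 0.43 and 0.30 in TB14, and Rragc, a Rag GTPase, by 0.21. These were named for their change over both lines, and none of the 5 genes higher in TB14 is among them. In TB13 Fnip2 fell by 1.93 as deposited and 1.73 after quantile scaling, and Fnip1 by 1.97 and 1.47.

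Of 16 autophagy genes, 7 were lower and 3 higher in TB14, and 14 lower and 0 higher in both lines by limma (0 higher also at an unadjusted p under 0.05, and 10 lower and 2 higher after quantile scaling). Ulk1, the initiating kinase, fell by 0.93 in TB14 (161 ± 13.7 to 78.0 ± 2.49, SD, n = 4), Atg7, the E1-like enzyme, by 0.77, Map1lc3a by 0.37 and Atg16l1 by 0.18. Wipi2 and Atg12, named after their values were seen, were called higher in TB14 under all 5 scalings. Their TB14 changes over these were 0.64 to 0.72 and 0.59 to 0.72, and their TB13 direction depended on the scaling. In TB13 Ulk1 and Atg7 fell under all 5 scalings, by 1.17 and 0.90 after quantile scaling. Pik3c3, the class III lipid kinase, rose by 0.30 in TB14, while its TB13 change was -1.17 as deposited and -0.53 after quantile scaling.

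**Figure D5:**
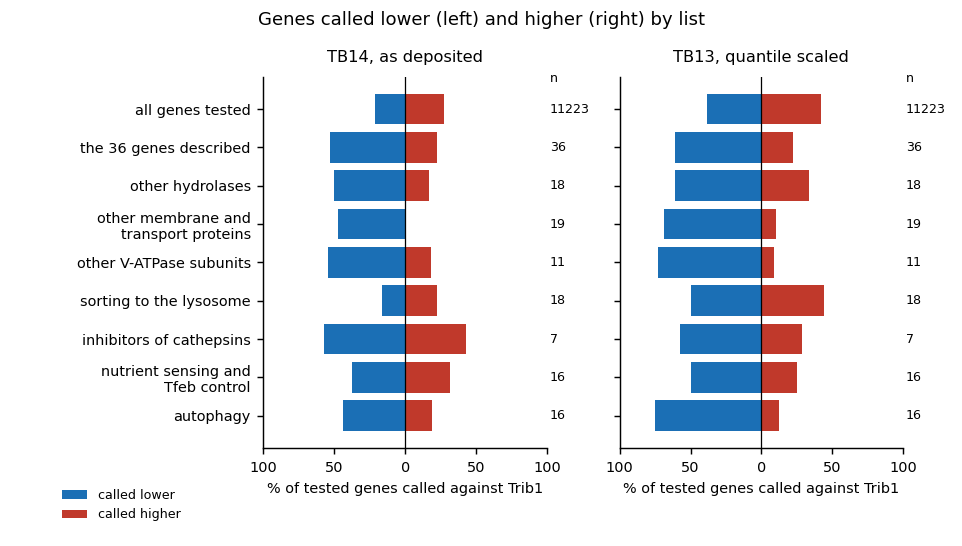
Share of tested genes called lower (blue, to the left) and higher (red, to the right) against Trib1, for all genes, the 36 lysosomal genes and the 7 further lists, in TB14 as deposited and in TB13 after quantile scaling, with the number tested at the right. In TB14 the 36 genes gave 19 lower and 8 higher, and the other membrane and transport proteins 9 lower and 0 higher.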

How the data were processed

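RNA of 12 samples was measured on arrays, 4 per line. The authors deposited linear intensities, with MAS5 the only tool in the submitters' processing notes. Its version, its scaling target and any background correction were not given there. The array held 45141 probe sets. No test used the 104 controls among them, and the platform annotation gave 28898 a single gene, 551 several and 15588 none. A probe set had to exceed the array median on 4 or more of the 12 arrays, and the brightest represented each of 11223 genes. Of the genes named, Stfa3 passed only through TB14 arrays.

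limma 3.58.1 in R 4.3.3 fitted log2(intensity + 12.7) in the 3 groups, with a variance trend and Benjamini-Hochberg adjustment over all genes. The median SD within a line was 0.071 (log2). The number of arrays limits the precision. Code was tested on simulated data. Alternatives were 4 other scalings, filters, pseudocounts, variance models, replicate block, mean of probe sets, 2-fold threshold, line means and leaving out arrays.

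Members, lists and sequences searched were chosen with earlier results of these data known. Named genes of the further lists were the 4 with the largest called change for both lines and those called in opposite directions with a change of 1 or more. The 12 intensities were given for members called with a change of 1 or more under both scalings. Other probe sets were named where called oppositely, and those of Atp13a2, Laptm4b, Ctsz, Scarb2, Gusb, Lamp2 and Tpp1 after their values were seen. Figures used matplotlib 3.10.9.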

Additional observations from a re-analysis of the deposited data

Results flagged for a closer look

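In 7 of 108 sets of 4 arrays (36 genes in 3 lines), 1 array lay far from the other 3 relative to their range, and chance alone flags about 1 in 20. Lamp2 was at 1223 on TB14 replicate 4, with the others at 1211. Laptm4a was at 1287 on TB14 replicate 2 (others 1258 to 1262). Npc2 was at 2300 on TB14 replicate 4 (others 2246 to 2254). Arsb was at 23.8 on TB14 replicate 3 (others 21.4 to 21.6). Among the Trib1 arrays, Glb1 was at 792 on replicate 3 (others 827.1 to 829.7), Tfe3 at 135 on the same replicate (others 142.8 to 144.1) and Atp6v1h at 514 on replicate 4 (others 489.5 to 492.4).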

How the results depend on the processing

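The 2-fold threshold ended calls of 71 of 104 gene results, with no reversal. Line means ended calls too, in a fit with a single Trib1 value and little power to make them. Reversals came mainly with the scaling of the TB13 arrays, 12 of 104 under calibration. Called higher and lower in TB13 were 8 and 22 with quantile scaling, 10 and 22 with loess, and 15 and 18 with calibration on the hybridization controls. For both lines, quantile scaling gave 7 higher, and calibration 14 higher and 18 lower. Leaving out the 4 TB13 arrays left TB14 against Trib1 alone, with 10 higher and 22 lower. For TB14 against TB13, higher and lower were 13 and 19 with quantile scaling, 12 and 21 with loess, 10 and 24 with calibration, and median scaling gave 1 lower. At 2-fold, higher and lower were 2 and 10 in TB13 (2 and 2 after quantile scaling) and 1 and 1 in TB14 (1 and 1). They were 1 and 2 in both lines (2 and 2), and 6 and 0 for TB14 against TB13 (0 and 1). These are counts of members alone. No share over all genes stands beside them under loess or calibration, or at 2-fold beyond the shares given above. All genes shifted too. Their median change with loess and calibration was 0.02 and 0.51 in TB13, and -0.03 and -0.51 for TB14 against TB13.

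TB13 changes that reversed, under quantile, loess and calibration in turn, were 0.058, 0.096 and 0.17 for Ctsz, 0.12, 0.14 and 0.50 for Gaa, 0.33, 0.33 and 0.61 for Arsa, 0.15, 0.15 and 0.44 for Smpd1, 0.11, 0.13 and 0.54 for Lipa, 0.61, 0.62 and 1.00 for Tfe3, and 0.17, 0.22 and 0.79 for Mitf. Under loess and calibration they were 0.055 and 0.085 for Laptm4a and 0.0041 and 0.11 for Glb1. Under calibration alone they were 0.44 for Npc1, 0.24 for Scarb2 and 0.022 for Psap, and under loess alone -0.043 for Arsb. In TB14, Arsb, not called, was 0.0078 with quantile, 0.0080 with median and 0.013 with loess scaling, and -0.032 to 0.02 without 1 array, above 0 without Trib1 replicate 1 or 4 or TB14 replicate 2 or 4. With the mean of a gene's probe sets, Lipa was 0.0065 and Atp6v1a -0.062 in TB14. Beyond the scaling itself, causes were not tested.

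Leaving out 1 array gave 17 to 21 lower and 8 higher in TB14, 31 to 32 and 4 in TB13, 30 to 31 and 4 to 5 in both lines, and 31 higher and 3 to 4 lower for TB14 against TB13. Smpd1 gained a TB14 call when any 1 of the 4 TB13 arrays was left out, and Glb1 gained one without TB13 replicate 4.

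Replicate numbers did not pair the arrays: 1 of 12 same-number pairs correlated above 0.1 (-0.11 to 0.12). In 4 of these 12 pairs, the array correlated better with its own number than with any other number of that line. With the replicate block, Ppt1 in TB14 lost its call (adjusted p = 0.073), and with quantile scaling as well, counts were 8 higher in TB13, 7 higher in both lines, and 13 higher and 19 lower for TB14 against TB13.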
